A study of Homo sapiens with 5 samples.

Results

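The insulin-like growth factor (IGF) system was followed in Rh41, an established human cell line of alveolar rhabdomyosarcoma of the fusion-positive form. The 10 genes were taken by name: the ligand IGF2, the receptors IGF1R, IGF2R and INSR, the receptor substrates IRS1 and IRS2, and the binding proteins IGFBP2, IGFBP3, IGFBP4 and IGFBP5. All 10 had a row among the 43714 gene rows of the files, and 9 had enough reads to be tested. The series compared cells transfected with an siRNA against H3F3A (3 libraries, replicates 1, 2 and 3) with cells transfected with a scrambled siRNA (2 libraries, replicates 1 and 3), each for 48 hours and with Lipofectamine RNAiMAX as the carrier. H3F3A is 1 of the 2 genes for the histone variant H3.3. Both groups come from a single cell line, and whether replicates came from separate cultures is not stated, and p-values therefore rest on differences among libraries that could be purely technical.

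IGF2 is a secreted growth factor, normally made from the paternal copy of an imprinted locus and often abundant in rhabdomyosarcoma. It acts through the receptor tyrosine kinase IGF1R and through the insulin receptor INSR. Active receptors phosphorylate the docking proteins IRS1 and IRS2, which recruit PI3 kinase and start signalling through AKT and mTOR. IGF2R, also the mannose 6-phosphate receptor, has no kinase and carries IGF2 to lysosomes for breakdown, and the secreted IGFBP proteins bind IGFs outside the cell and hold them from or bring them to their receptors.

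IGFBP2, IRS2 and IGFBP4 were the 3 genes of the system that passed the test. With all libraries IGFBP2 and IRS2 fell and IGFBP4 rose after H3F3A siRNA, where 3.2% of all tested genes were called in either direction. None of the 3 calls held without H3F3A siRNA replicate 1 or without H3F3A siRNA replicate 3. The 300 bases around their RefSeq transcription starts (GRCh38.p14, 250 bases before the start and 50 after it, written along the gene) are printed because these 3 genes were called with all libraries. The windows were searched on both strands for TATAAA, for the GC box GGGCGG, for the E box CACGTG and for CCAAT. Matches are in capitals, and adjoining or overlapping GC boxes run together.
IGFBP2 chr2:216633170-216633469 + strand: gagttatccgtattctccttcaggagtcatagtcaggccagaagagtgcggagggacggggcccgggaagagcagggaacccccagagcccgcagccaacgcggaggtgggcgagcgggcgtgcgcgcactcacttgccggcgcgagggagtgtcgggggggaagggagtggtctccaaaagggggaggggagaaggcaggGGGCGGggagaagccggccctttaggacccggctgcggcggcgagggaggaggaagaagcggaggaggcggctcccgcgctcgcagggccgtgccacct
IRS2 chr13:109786534-109786833 - strand: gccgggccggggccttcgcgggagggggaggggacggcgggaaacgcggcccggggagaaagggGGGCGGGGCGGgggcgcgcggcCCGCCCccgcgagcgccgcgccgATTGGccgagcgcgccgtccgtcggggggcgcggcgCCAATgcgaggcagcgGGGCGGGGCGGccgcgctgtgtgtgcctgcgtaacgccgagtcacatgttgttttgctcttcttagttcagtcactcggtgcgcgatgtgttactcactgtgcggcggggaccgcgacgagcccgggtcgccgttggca
IGFBP4 chr17:40443200-40443499 + strand: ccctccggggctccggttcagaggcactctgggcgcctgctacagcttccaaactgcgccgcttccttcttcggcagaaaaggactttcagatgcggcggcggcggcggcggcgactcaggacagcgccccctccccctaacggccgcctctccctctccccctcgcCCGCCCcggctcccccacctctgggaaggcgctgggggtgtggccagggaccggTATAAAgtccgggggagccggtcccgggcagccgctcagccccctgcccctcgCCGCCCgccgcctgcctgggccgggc

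The IGFBP4 window held a TATAAA and 2 GC boxes, and its GC content was 74%. The IRS2 window held no TATAAA, 5 GC boxes and 2 CCAAT matches, and the IGFBP2 window held 1 GC box. The IGFBP2 window shown is the second of 3 that RefSeq lists for this gene, chosen for its CpG content (28 CpG dinucleotides, against 8 and 6 in the other windows). Of 35116 windows of this kind over all genes, 11.5% held TATAAA, 45% held GGGCGG, 7.26% held CACGTG and 34.6% held CCAAT. Windows were listed for 9 of the 10 genes, and none for IGF2. IGFBP4 was the only one of the 9 genes with a TATAAA match, and IGF2R was the only one with 3 CACGTG matches. These matches describe letters and no measurement of binding.

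Libraries held 28493573 to 30705963 reads assigned to genes. H3F3A itself (row H3-3A) stood at 9.38, 10.5 and 8.54 CPM (reads scaled to a common library size) in H3F3A siRNA libraries, against 294 and 269 CPM in scrambled siRNA libraries. The line showed most of its lineage markers. Of 16 rhabdomyosarcoma markers 13, among them MYOD1, MYOG and DES, averaged at least 1 CPM, and MYF5, MYF6 and CDH3 averaged under 0.5 CPM. The 16 markers summed to 4891 to 4987 CPM in H3F3A siRNA libraries and 5570 to 6537 CPM in scrambled siRNA libraries. FGFR4 fell (log2 fold change -0.50, edgeR adjusted p = 0.00257) and TFAP2B rose (0.49, edgeR adjusted p = 0.00133). Both kept their calls with GC correction, and without scrambled siRNA replicate 1 they were -0.35 and 0.50. CHRND fell (-0.28, edgeR adjusted p = 0.0477), but was not called with GC correction (edgeR adjusted p = 0.149). Summed epithelial, endothelial and immune markers lay under 7 CPM in every library. The fibroblast list reached 1233 to 1293 CPM in H3F3A siRNA libraries and 1213 to 1334 CPM in scrambled siRNA libraries, nearly all of it COL3A1. Of the other fibroblast markers, DCN, LUM and POSTN were each under 0.5 CPM and FAP was under 1 CPM. COL1A1 averaged 31 CPM after H3F3A siRNA and 39.8 CPM after scrambled siRNA, and PDGFRB averaged 34.7 CPM after H3F3A siRNA and 44.4 CPM after scrambled siRNA. Both fell (edgeR adjusted p = 0.041 and 0.0162), and without scrambled siRNA replicate 1 PDGFRB kept its call (edgeR adjusted p = 0.0455) and COL1A1 did not (edgeR adjusted p = 0.514). With GC correction neither COL1A1 nor PDGFRB was called (edgeR adjusted p = 0.279 and 0.0956). Their part in the results was not tested. Scrambled siRNA replicate 1 stood apart in its GC trend, taken on log2 CPM minus the gene's mean over all libraries. This difference rose by 0.144 for each 10 points of gene GC content in scrambled siRNA replicate 1. It changed by -0.059, -0.0385 and -0.0402 in the H3F3A siRNA libraries and by -0.00583 in scrambled siRNA replicate 3. Because the gene's mean is subtracted, these slopes are not independent, and a rise in 1 library forces falls among the others. Called genes of the IGF system and of the downstream lists are therefore given with and without scrambled siRNA replicate 1, and with each library's GC trend removed.

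The ligand IGF2 was low in a pair of the H3F3A siRNA libraries and not in the third. It stood at 275, 450 and 287 CPM in H3F3A siRNA replicates 1, 2 and 3, against 448 and 493 CPM in scrambled siRNA replicates 1 and 3. Replicate 2 of the H3F3A siRNA group lay at the level of the scrambled libraries, so the groups overlapped. The raw counts were 8203, 13065 and 8870 after H3F3A siRNA, against 13067 and 14647 after scrambled siRNA. The log2 fold change was -0.48, with a 95% interval of -1.18 to 0.22, and IGF2 was not called (edgeR adjusted p = 0.455). Without H3F3A siRNA replicate 2 it was -0.74 (edgeR adjusted p = 0.000122), and the other 4 fits that left out 1 library gave -0.35 to -0.55 without a call. A single library thus set whether IGF2 passed. In bulk RNA a lower value can mean fewer expressing cells or less RNA per cell, which cannot be told apart. Genes averaging at least 100 CPM were ranked by their range among the H3F3A siRNA libraries, where IGF2 ranked 2. Of the 9 genes at ranks 2 to 10, IGF2 among them, all 9 were highest in replicate 2 of that group and 8 were lowest in replicate 1. These genes were picked by their range among the same libraries. The matching shares over all 2510 ranked genes were not counted, so this count has no background. The part of these libraries in the IGF2 result was not tested.

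IGF2 shares 13.3% of its exon bases with INS-IGF2, IGF2-AS or another overlapping gene in GENCODE v29, and reads there are left out of the unstranded counts as ambiguous. Of the genes at this locus, the row of IGF2-AS, an antisense transcript, stood at 19.6, 18.8 and 19.5 CPM after H3F3A siRNA, against 19.5 and 16.2 CPM after scrambled siRNA. These unstranded counts did not follow the IGF2 pattern. They were only 31.7% to 37.9% of the summed stranded columns, which held 1548, 1597 and 1672 reads after H3F3A siRNA and 1798 and 1514 after scrambled siRNA. The kit does not mark strand, so the level of IGF2-AS is uncertain. IGF2-AS was not called (log2 fold change 0.11, edgeR adjusted p = 0.604), but rose with GC correction (0.33, edgeR adjusted p = 0.0379). Without scrambled siRNA replicate 1 it was 0.25 (edgeR adjusted p = 0.399). The read-through gene INS-IGF2 had 20, 25 and 24 reads after H3F3A siRNA and 25 and 17 after scrambled siRNA. INS had no read in any library. H19, the imprinted non-coding RNA next to IGF2, was also listed at 0, but it has a second, numbered row in the files, so its reads may have been set aside as mapping to several places.

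**Figure D1:**
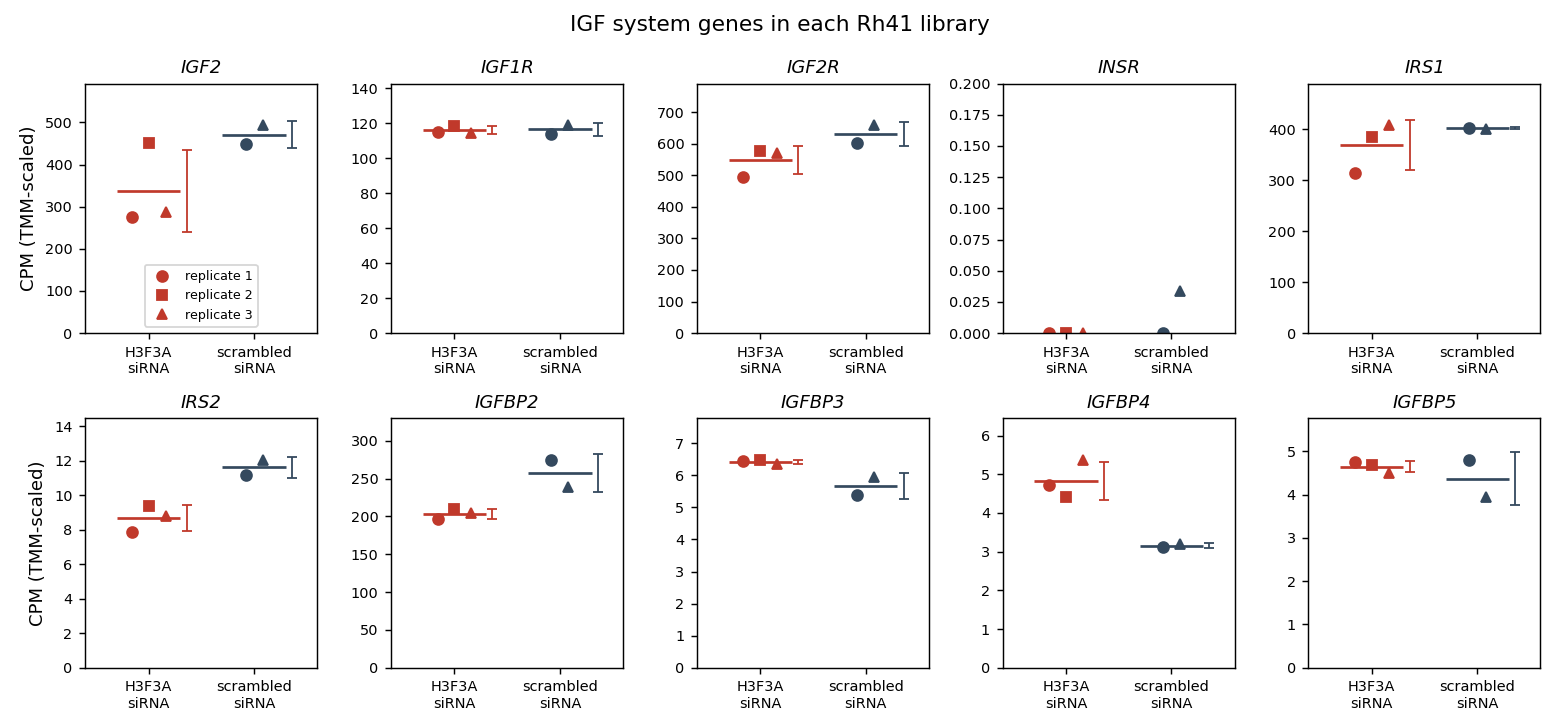
Each panel gives 1 gene of the IGF system in CPM (y axis, from 0) in the 3 H3F3A siRNA libraries (red) and the 2 scrambled siRNA libraries (dark blue), with the replicate number as the symbol, the mean as a line and the SD as the bar beside it (not drawn for INSR, which had 1 read in all). IGF2 in H3F3A siRNA replicate 2 lies at 450 CPM, beside the scrambled libraries, while replicates 1 and 3 lie at 275 and 287 CPM.

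Of the receptors, none was called. IGF1R, the kinase that signals for IGF2, stood at 115, 119 and 114 CPM in H3F3A siRNA libraries, against 114 and 119 CPM in scrambled siRNA libraries. The groups overlapped fully, and the log2 fold change of -0.01 had a 95% interval of -0.16 to 0.15 (edgeR adjusted p = 0.978). Its sign changed between fits.

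IGF2R, the clearance receptor, stood at 497, 576 and 571 CPM in H3F3A siRNA libraries, against 604 and 659 CPM in scrambled siRNA libraries. All 3 H3F3A siRNA libraries lay below both scrambled ones, by a small margin, and the log2 fold change was -0.20 (95% interval -0.37 to -0.04, edgeR adjusted p = 0.189). Of all genes tested, 17.1% had every H3F3A siRNA library below every scrambled library, and 16% had every one above. The direction of IGF2R was negative in every fit that was run, from -0.14 to -0.27. The IGF2R promoter window is shown for its 3 CACGTG matches, a motif that 7.26% of windows held at least once. The share of windows with 3 matches was not counted, and the IRS1 window held 1 match.
IGF2R chr6:159968832-159969131 + strand: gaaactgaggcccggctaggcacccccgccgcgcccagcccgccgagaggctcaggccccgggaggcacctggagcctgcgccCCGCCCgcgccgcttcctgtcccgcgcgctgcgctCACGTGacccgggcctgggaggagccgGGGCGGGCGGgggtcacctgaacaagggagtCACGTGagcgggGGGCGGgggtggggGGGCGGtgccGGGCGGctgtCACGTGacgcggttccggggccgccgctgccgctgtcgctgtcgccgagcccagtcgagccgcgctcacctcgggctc

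INSR, the insulin receptor, was all but absent from the counts. It had 0, 0 and 0 reads in the H3F3A siRNA libraries, against 0 and 1 in the scrambled siRNA libraries. A count of 0 allows up to 3 reads a library, or 0.0971 to 0.103 CPM, so the files hold no INSR level at this depth. These limits cover counting error only. The gene rows on either side were counted normally, with 165, 135 and 180 reads of ZNF557 and 1726, 1805 and 2040 reads of ARHGEF18 after H3F3A siRNA, against 153 and 140 reads of ZNF557 and 2285 and 1935 reads of ARHGEF18 after scrambled siRNA. None of the 10 genes has a numbered second row in the files, and INSR shares no exon base with another gene in GENCODE v29. The related receptor INSRR averaged 0.156 CPM after H3F3A siRNA and 0.0842 CPM after scrambled siRNA. Whether the INSR transcript is missing from these cells or from the counting was not tested.

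The substrates differed in level and in what the test found. IRS1, the more abundant of them, stood at 313, 384 and 408 CPM in H3F3A siRNA libraries, against 403 and 401 CPM in scrambled siRNA libraries. Replicate 1 of the H3F3A siRNA group was low and replicate 3 was above both scrambled libraries (log2 fold change -0.13, 95% interval -0.31 to 0.06, edgeR adjusted p = 0.519).

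IRS2, which FOXO factors and insulin signalling are known to regulate at the transcript level, fell. It stood at 7.87, 9.41 and 8.8 CPM in H3F3A siRNA libraries, against 11.2 and 12.1 CPM in scrambled siRNA libraries, with no overlap between the groups. The mean was 8.69 ± 0.773 CPM (SD, n = 3) after H3F3A siRNA and 11.6 ± 0.597 CPM (SD, n = 2) after scrambled siRNA, a log2 fold change of -0.42 (SE 0.112, edgeR adjusted p = 0.0417). The reads behind this were 235, 273 and 272 after H3F3A siRNA and 327 and 358 after scrambled siRNA. The call ended with DESeq2 (adjusted p = 0.0782), upper-quartile scaling (edgeR adjusted p = 0.0563), the sum of the 2 stranded count columns (edgeR adjusted p = 0.0514) and GC correction (log2 fold change -0.29, edgeR adjusted p = 0.24) and without any 1 of the 5 libraries (edgeR adjusted p from 0.0643 to 0.236), and its transcript lies above 81.1% of tested genes in GC content.

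The binding proteins moved in different directions. IGFBP2, by far the most abundant of those 4, fell. It stood at 197, 209 and 205 CPM in H3F3A siRNA libraries, against 275 and 239 CPM in scrambled siRNA libraries. All 3 H3F3A siRNA libraries lay close together and below both scrambled ones, with a mean of 204 ± 6.4 CPM (SD, n = 3) after H3F3A siRNA and 257 ± 24.9 CPM (SD, n = 2) after scrambled siRNA. The log2 fold change was -0.34 (SE 0.0777, edgeR adjusted p = 0.0187). Removal of the GC trend left it at -0.22 (edgeR adjusted p = 0.0387). The call ended without scrambled siRNA replicate 1 (-0.24, edgeR adjusted p = 0.172) and without H3F3A siRNA replicate 1, 2 or 3 (adjusted p = 0.179, 0.072 and 0.0607).

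IGFBP4, known as an inhibitor of IGF action, rose from a low level. It stood at 4.72, 4.41 and 5.37 CPM in H3F3A siRNA libraries, against 3.12 and 3.2 CPM in scrambled siRNA libraries, and the groups did not overlap. Raw counts were 141, 128 and 166 after H3F3A siRNA and 91 and 95 after scrambled siRNA. The log2 fold change was 0.61 (95% interval 0.29 to 0.94, SE 0.156, edgeR adjusted p = 0.032), a 1.53-fold rise and the largest of the 9 tested genes. With GC correction it was 0.81 (edgeR adjusted p = 0.0103). Its transcript is GC-rich, above 91.4% of tested genes. The call ended without scrambled siRNA replicate 1 (0.59, edgeR adjusted p = 0.226) and without H3F3A siRNA replicate 1, 2 or 3 (adjusted p = 0.159, 0.0583 and 0.129), while the log2 fold change stayed between 0.53 and 0.87 in every fit that gave one.

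IGFBP3, the main carrier of IGFs in the circulation, was slightly higher in all 3 H3F3A siRNA libraries, without a call. It stood at 6.43, 6.48 and 6.34 CPM in H3F3A siRNA libraries, against 5.38 and 5.96 CPM in scrambled siRNA libraries (log2 fold change 0.18, 95% interval -0.09 to 0.44, edgeR adjusted p = 0.518). IGFBP5, a binding protein known from differentiating muscle cells, stood at 4.76, 4.69 and 4.5 CPM in H3F3A siRNA libraries, against 4.8 and 3.94 CPM in scrambled siRNA libraries, and the groups overlapped (log2 fold change 0.09, edgeR adjusted p = 0.817). IGFBP5 lies next to IGFBP2 on chromosome 2. The summed reads of these 4 genes came to 213, 225 and 221 CPM in H3F3A siRNA libraries, against 288 and 253 CPM in scrambled siRNA libraries. IGFBP2 gave 92.5%, 93.1% and 92.7% of that sum after H3F3A siRNA, against 95.4% and 94.8% after scrambled siRNA.

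In all, 2 of the 9 tested genes fell, 1 rose and 6 were not called. Over all 15859 genes tested, 2.69% were called lower and 0.504% higher by the same rule, and 3.2% in either direction. The groups did not overlap in 5 of the 9 genes, 3 lower (IGF2R, IRS2, IGFBP2) and 2 higher (IGFBP3, IGFBP4), against 33.1% of all genes in either direction. The median log2 fold change was -0.13 over the 9 genes and 0.01 over all genes. With GC correction 1 gene fell (IGFBP2) and 1 rose (IGFBP4), where 1.07% of all genes were called lower and 0.605% higher, 1.68% together. Without scrambled siRNA replicate 1 none of the 9 was called by edgeR, 4 had an unadjusted p under 0.05 (9.74% of all genes) and 6 lay below 0, where 0.501% of all genes were called lower and 0.122% higher, 0.623% together. With GC correction and without that library none was called either, where 0.263% of all genes were called lower and 0.104% higher, 0.366% together. DESeq2 on all 5 libraries called 1 of the 9, IGFBP2. Calls over all genes split into 427 lower and 80 higher, and into 323 lower and 116 higher with upper-quartile scaling, where 1 of the 9 genes fell and 1 rose.

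**Figure D2:**
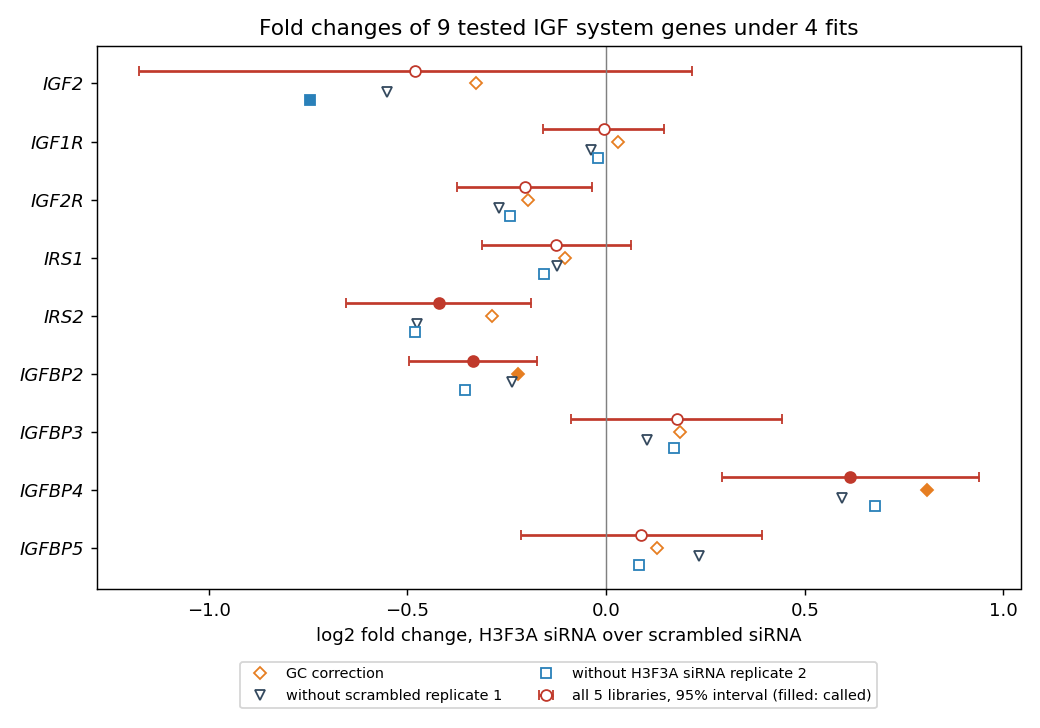
Log2 fold changes (x axis, H3F3A siRNA over scrambled siRNA) of the 9 tested genes (rows) in the fit of all 5 libraries with its 95% interval, and as points with GC correction, without scrambled siRNA replicate 1 and without H3F3A siRNA replicate 2. Filled symbols mark an edgeR adjusted p under 0.05: IRS2, IGFBP2 and IGFBP4 are filled with all libraries, IGFBP2 and IGFBP4 also with GC correction, and IGF2 (-0.74) only without H3F3A siRNA replicate 2.

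Levels were compared between genes as CPM per kb of exon, with exon lengths from GENCODE v29, which may differ from the annotation behind the counts. IGFBP2 was highest at 130 ± 4.08 CPM per kb (SD, n = 3) after H3F3A siRNA and 164 ± 15.9 CPM per kb (SD, n = 2) after scrambled siRNA. IGF2 followed at 48.3 ± 14 CPM per kb after H3F3A siRNA and 67.4 ± 4.58 CPM per kb after scrambled siRNA. In scrambled siRNA libraries IGF2 lay above IGF2R (45 ± 2.8 CPM per kb) and IRS1 (41.4 ± 0.179 CPM per kb), while in H3F3A siRNA libraries the ranges of these 3 genes overlapped. IGF1R stood at 9.48 ± 0.181 CPM per kb after H3F3A siRNA and 9.52 ± 0.284 CPM per kb after scrambled siRNA, below IGF2R in every library. IGFBP3, IGFBP4, IRS2 and IGFBP5 all lay under 2.5 CPM per kb. In scrambled siRNA libraries IGFBP4 (1.44 ± 0.0255 CPM per kb) and IRS2 (1.43 ± 0.0734 CPM per kb) did not differ beyond their spread. In H3F3A siRNA libraries IGFBP4 stood at 2.2 ± 0.223 CPM per kb and IRS2 at 1.07 ± 0.0949 CPM per kb, and their ranges were apart.

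**Figure D3:**
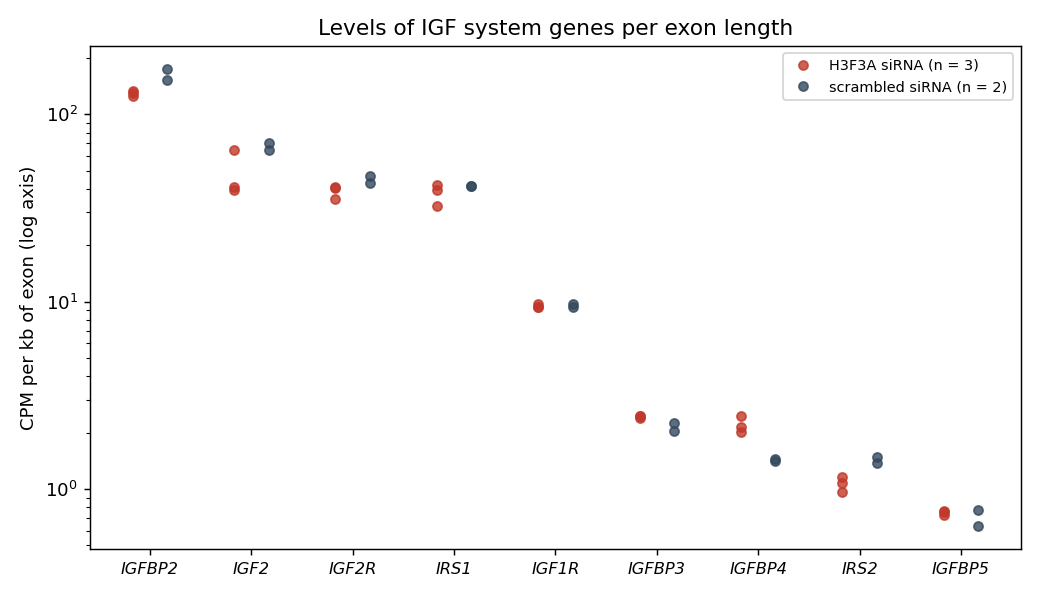
Level per exon length (y axis, CPM per kb, log axis) of 9 genes in order of their mean in scrambled siRNA libraries, with 1 point per H3F3A siRNA library (red, left of each pair) and per scrambled siRNA library (dark blue). INSR is left out because it had 1 read in all, and the points run from 0.634 CPM per kb (IGFBP5) to 175 CPM per kb (IGFBP2).

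Further genes of the IGF system were read from a list of 25, of which 24 had a row and 16 were tested. IGFBP6, a binding protein with a preference for IGF2, was the only one called with all libraries: it stood at 13.5 ± 1.32 CPM (SD, n = 3) after H3F3A siRNA and 19.1 ± 2.14 CPM (SD, n = 2) after scrambled siRNA (log2 fold change -0.51, edgeR adjusted p = 0.00969), though not with GC correction (edgeR adjusted p = 0.142) or without scrambled siRNA replicate 1 (-0.39, edgeR adjusted p = 0.166). The most abundant was STC2, a secreted inhibitor of the protease PAPPA, which cleaves IGFBP4. STC2 averaged 972 ± 14.9 CPM after H3F3A siRNA and 1063 ± 33.6 CPM after scrambled siRNA (edgeR adjusted p = 0.402). PAPPA itself averaged 1.21 CPM after H3F3A siRNA and 1.27 CPM after scrambled siRNA. The IGF2 mRNA-binding proteins IGF2BP1, IGF2BP2 and IGF2BP3 were all expressed and none was called. IGF2BP1 averaged 340 ± 10.3 CPM after H3F3A siRNA and 329 ± 19.6 CPM after scrambled siRNA. IGFBPL1, an IGFBP-like protein, averaged 166 ± 4.09 CPM after H3F3A siRNA and 190 ± 1.27 CPM after scrambled siRNA (edgeR adjusted p = 0.154). The ligand IGF1 averaged 0.145 CPM after H3F3A siRNA and 0.136 CPM after scrambled siRNA, and IRS4 and IGFBP1 had no reads in any library.

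Genes downstream of the receptors were read from 3 further lists. Of 33 genes of the PI3 kinase, AKT and mTOR pathway 31 were tested, none fell and 1 rose, where 3.2% of all genes were called in either direction. At an unadjusted p under 0.05 there were 10 of 31 by edgeR, where 16.8% of all genes passed that threshold. With GC correction there were 3 of 31, and the share over all genes was not counted for that fit. DESeq2 called 1, where it called 4.92% of all genes to which it gave an adjusted p. The gene that rose by edgeR was PIK3R1, the regulatory subunit that binds IRS proteins. PIK3R1 averaged 35.3 ± 0.978 CPM (SD, n = 3) after H3F3A siRNA and 28 ± 3.1 CPM (SD, n = 2) after scrambled siRNA (log2 fold change 0.33, edgeR adjusted p = 0.0391, and 0.0565 with GC correction). Without scrambled siRNA replicate 1 its log2 fold change was 0.22 (edgeR adjusted p = 0.356). AKT1 averaged 256 ± 5.78 CPM after H3F3A siRNA and 295 ± 24.1 CPM after scrambled siRNA (edgeR adjusted p = 0.15). INPPL1, a lipid phosphatase that opposes the pathway, averaged 364 ± 19.5 CPM after H3F3A siRNA and 382 ± 22.6 CPM after scrambled siRNA (edgeR adjusted p = 0.696). The median log2 fold change of the 31 genes was -0.02.

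None of the 20 tested genes of the RAS and MAPK pathway was called by edgeR, with or without GC correction, where 3.2% of all genes were called without it and 1.68% with it. At an unadjusted p under 0.05 there were 4 of 20, where 16.8% of all genes passed, and DESeq2 called 0. The adaptor SHC1 averaged 429 ± 5.19 CPM (SD, n = 3) after H3F3A siRNA and 442 ± 17.7 CPM (SD, n = 2) after scrambled siRNA. Among 23 tested genes of a list of FOXO factors and their targets, which PI3 kinase signalling is known to hold down, edgeR called none. An unadjusted p under 0.05 was found for 10 (16.8% of all genes), and for 8 with GC correction, where the share over all genes was not counted. DESeq2 called 2 (4.92% of all genes). The genes went in both directions, and 11 of the 23 lay below 0. Of the 10, FOXO1 was at 0.21 and GADD45A at -0.26, and without scrambled siRNA replicate 1 they were at 0.15 and -0.18. RICTOR was in this list and in that of the PI3 kinase pathway, so it counts in both. GADD45A, a stress-induced growth arrest gene, averaged 211 ± 9.57 CPM after H3F3A siRNA and 253 ± 20.2 CPM after scrambled siRNA (edgeR adjusted p = 0.0657). FOXO1 averaged 101 ± 5.84 CPM after H3F3A siRNA and 87 ± 4.98 CPM after scrambled siRNA (edgeR adjusted p = 0.158), a row that can also take reads of the PAX3-FOXO1 fusion transcript. With GC correction CITED2, a transcriptional regulator, fell (-0.26, edgeR adjusted p = 0.0244), and without scrambled siRNA replicate 1 it was -0.19 (edgeR adjusted p = 0.308). HRAS, SESN2 and PCK2 of these lists have a numbered second row and averaged under 1 CPM, and their levels are uncertain.

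**Figure D4:**
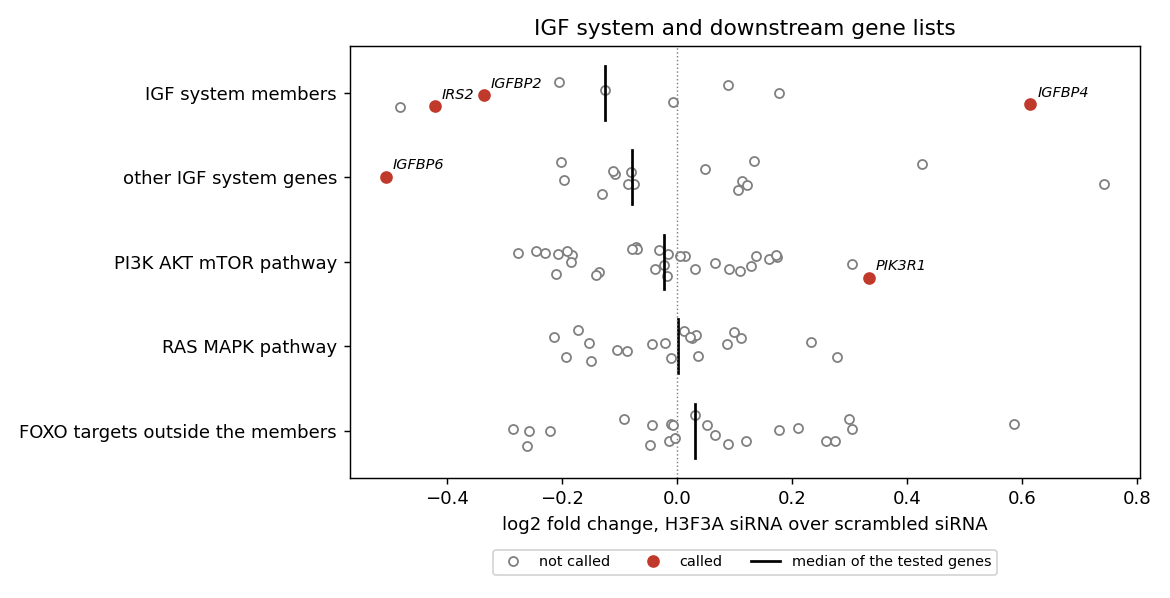
Each point is 1 tested gene and its log2 fold change (x axis, H3F3A siRNA over scrambled siRNA) in the 9 tested genes of the 10 named and in 4 further lists (rows), red where the edgeR adjusted p was under 0.05, with the median of each list as a black bar. Red points are IRS2, IGFBP2 and IGFBP4, then IGFBP6 and PIK3R1, and the list medians lie between -0.13 and 0.03.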

How the data were processed

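Poly-A RNA was sequenced in 5 libraries of Rh41 cells. Per the labels' protocols, TRIzol-extracted RNA was poly-A selected for NEBNext Ultra libraries, a kit that does not mark strand, so sense and antisense reads cannot be told apart. The authors deposited unnormalized gene counts, laid out as STAR writes them (1 unstranded and 2 stranded columns). The submitters' processing notes name STAR 2.5, HTSeq 0.6.1, DESeq2 and hg19, without roles. Many gene rows are numbered copies, which plain hg19 does not hold, so gene positions are not given for the counts.

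The unstranded column went into edgeR 4.0.16 (R 4.3.3): filterByExpr (minimum count 10, minimum total 15), TMM, robust quasi-likelihood F test, no covariates, Benjamini-Hochberg over 15859 genes, called at an adjusted p under 0.05. CPM is scaled by TMM library size. DESeq2 1.42.0 was an alternative. For GC correction, log2 CPM minus the gene's mean over the libraries was fitted with a spline over GC content. GC content was that of each gene's longest GENCODE v29 transcript (90.7% of tested genes matched). The spline was removed as an offset per library. The biological coefficient of variation was 6.53%. Ambiguous reads made up 4.45% to 4.56% of a library and multimapping reads 6.28% to 6.42%. The tests were also run on simulated counts, drawn with the same relative spread for every gene. Only the simulated fit with GC correction had a library with a GC trend of its own. That run does not cover genes of large spread, such as IGF2, or the main fit with a library that stands apart. The 10 genes, the further lists and the rule for named genes (all 10, called genes of the lists, otherwise up to 4 of the most abundant per list, and genes at the IGF2 locus) were chosen with earlier results of these data known. A few genes outside that rule, such as PAPPA, FOXO1, CITED2 and the genes beside INSR, were named after their values were seen. Some genes of the further lists are not reported here.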

Additional observations from a re-analysis of the deposited data

How the results depend on the processing

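The sign of IGF1R, whose log2 fold change was near 0, turned positive with upper-quartile scaling (0.0174), without a low-count filter (0.000463), with GC correction (0.0288), and with GC correction and the replicate block (0.0182), and leaving out 1 library gave -0.0389 to 0.0245. IGFBP5 ran from -0.0477 to 0.234 when 1 library was left out. Of 125 refitted values of the 9 genes, 92 kept direction and side of the threshold, 20 lost a call, 5 gained one and 8 changed sign. Called genes of the system (3, of which 2 lower and 1 higher) numbered 1 lower and 0 higher by DESeq2, which gave no adjusted p for IGFBP4, and 0 with GC correction and without scrambled siRNA replicate 1. The causes of these changes were not tested. The count of lower genes was 1 with upper-quartile scaling, with the sum of the stranded columns and with GC correction. Leaving out 1 library gave 0 to 2 called genes, 0 to 1 lower and 0 to 1 higher.

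Over all genes, 507 calls (427 lower, 80 higher) became 792 without a filter (153 higher), 266 with GC correction (170 lower) and 60 with GC correction and without scrambled siRNA replicate 1 (43 lower, 17 higher). Leaving out 1 library gave 15 to 2481 calls, 9 to 1737 lower and 6 to 744 higher. With the replicate number as a block, 4 of the 9 genes were called (IGF2 in addition), and 574 genes in all. With the block and GC correction 6 were called, 5 of them lower, and 1237 genes in all (648 lower, 589 higher). H3F3A siRNA replicate 2 has no partner with its number, so the block compares replicates 1 and 3 alone with 1 residual degree of freedom among libraries, and IGF2 had a log2 fold change of -0.74 there. The labels do not say that numbers pair libraries, and deviations of same-numbered libraries had a correlation across genes of 0.18 for replicate 1 and 0.071 for replicate 3, while H3F3A siRNA replicate 2 and scrambled siRNA replicate 3 had 0.13. With 2 scrambled libraries each value has a mirror image of opposite sign, so these values do not show a pairing. Low counts limit IRS2, IGFBP3, IGFBP4 and IGFBP5, which had 91 to 358 reads a library.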

Other observations

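The spread of IGF2 among the H3F3A siRNA libraries was large for a gene of its depth. Among 2510 genes averaging at least 100 CPM, its ratio of highest to lowest H3F3A siRNA library (1.64) ranked second, while the scrambled libraries differed by 0.14 log2. IRS1 ranked 25 with a ratio of 1.3, IGF2R ranked 217, IGFBP2 ranked 1462 and IGF1R ranked 2065 with a ratio of 1.04. Among the 9 genes at ranks 2 to 10, the gene at rank 1 being not reported here, replicates 2 and 3 of the H3F3A siRNA group were nearly equal in some, such as GAS1 at 456, 651 and 649 CPM after H3F3A siRNA, against 635 and 710 CPM after scrambled siRNA. After IGF2 came MTCL1 at 94.2, 141 and 128 CPM in H3F3A siRNA replicates 1, 2 and 3, against 150 and 158 CPM in the scrambled siRNA libraries. MEX3D stood at 170, 253 and 209 CPM after H3F3A siRNA, against 296 and 297 CPM after scrambled siRNA. These genes were looked at after the IGF2 values were seen, and the source of the spread was not tested.

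IGFBP7 had 3, 1 and 3 unstranded reads after H3F3A siRNA and 1 and 2 after scrambled siRNA. Its stranded columns summed to 825, 698 and 782 reads after H3F3A siRNA and to 699 and 718 after scrambled siRNA. In GENCODE v29 it shares 20.1% of its exon bases with POLR2B or IGFBP7-AS1. Why the unstranded column held so few of these reads was not tested, and these counts give no level for IGFBP7.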
